A study of Homo sapiens with 8 samples.

Results

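The mRNAs of 10 RNA-binding proteins that recognise AU-rich elements were followed in KYSE850 cells after silencing of one of them, KHSRP. The genes were chosen by name, with earlier results of these data known, and every array probe whose RefSeq accession belonged to one of them was kept. This gave 17 probes for the 10 genes, of 42405 probes other than controls on each array. All 17 probes were bright enough to be tested, and they stood among 18761 tested probes for 12125 named genes. They covered KHSRP with its relatives FUBP1 and FUBP3, the stabilising binder ELAVL1, the decay factor HNRNPD, the zinc finger proteins ZFP36, ZFP36L1 and ZFP36L2, and the granule proteins TIA1 and TIAL1.

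AU-rich elements are short stretches of adenine and uracil in the untranslated 3′ ends of many unstable mRNAs, including those of cytokines, growth factors and immediate-early transcription factors. Some of the proteins that bind them, such as the ZFP36 family, HNRNPD and KHSRP, recruit deadenylases and the exosome and speed decay. Others act differently, since ELAVL1 slows decay while TIA1 and TIAL1 restrain translation and gather in stress granules. KHSRP also binds the terminal loops of some miRNA precursors and assists their processing.

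KYSE850 is an established line from a human esophageal squamous cell carcinoma. Its mRNA was measured on 8 one-colour Agilent arrays, 4 of cells given a control siRNA and 4 of cells given siRNA against KHSRP, an siRNA being a small duplex RNA that directs a cell to cut a matching transcript. The design text states that the arrays were run to find the pathways touched by KHSRP knockdown. The study's methods describe 3 KHSRP siRNAs, and the labels do not say which of them went onto which array. The labels give neither dose nor time for these samples and do not name separate cultures, so the p-values below measure only the spread between these samples, which may be technical.

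Both groups were split over 2 slides, with replicates 1 and 2 on slide 1 and the remaining replicates on slide 2. On an array, 45.1% to 49.4% of probes were rated well above background by the scanner software, and no spot was saturated. Squamous markers were present, with all 12 well above background on all 8 arrays and none called between the groups. Their summed signal spread widely within each group, from 10621 to 36023 with control siRNA and from 10301 to 38321 with KHSRP siRNA. Of 12 fibroblast, leukocyte and endothelial markers, 7 were not well above background on any array, 2 (COL1A1 and CD14) were above it on all 8, and none was called. The summed signal of that list was 111 to 132 with control siRNA and 118 to 160 with KHSRP siRNA. In RNA from whole cultures, fewer cells of a kind and less RNA per cell cannot be told apart.

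Levels below are log2 signals relative to the 75th percentile of the array, so that a probe at that percentile has a level of 0. The level of one probe is not comparable with that of another. Changes are differences of such levels, KHSRP siRNA minus control siRNA, with the standard error (SE) and the Benjamini-Hochberg adjusted p of limma over all tested probes. A probe was called when that p was under 0.05, which held for 1039 of the 18761 tested probes (5.54%), 360 of them higher (1.92%) and 679 lower (3.62%). A gene was represented by its tested probe with the highest mean level, and 751 of 12125 genes (6.19%) were called in this way. The groups did not overlap at 2773 tested probes (14.8%).

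KHSRP, FUBP1, ZFP36L1 and TIA1 were called at their representative probes, that is 4 of the 10 genes. KHSRP and TIA1 fell, whereas FUBP1 and ZFP36L1 rose. At the level of probes, 7 of 17 were called (41.2%), 3 higher and 4 lower, and the groups did not overlap at 10. Among the lower probes, KHSRP A_24_P134235, passed the filter on dim probes through its control arrays alone and so had to differ. Leaving out the 2 probes of KHSRP, the gene that was silenced, 5 of 15 probes were called (33.3%, against 5.54% of all tested probes), and the groups did not overlap at 8 (against 14.8%). Counted by gene it was 3 of 9 (33.3%, against 6.19% of all genes). Since the members were chosen with earlier results of these data known, these shares are no test of the group. Among the 9 genes other than KHSRP the representative change was above 0 in 5, with a median of 0.02 on the log2 scale, beside a median of 0.006 over all 12125 genes. The called members thus lay on both sides of a median close to 0.

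The deviations of the arrays from their group means were shared between the groups, and this bears on the errors of several members. KHSRP siRNA arrays 3 and 4 carry exchanged numbers in the scanner files and in the deposited series matrix. With the numbers of the matrix, each KHSRP siRNA array deviated together with the control array of its number (correlations of 0.43 to 0.84 over the tested probes), whereas with those of the scanner files pairs 3 and 4 correlated at −0.67 and −0.64. The same pairs had like sums of squamous markers, for example 33151 on control siRNA array 3 and 35536 on KHSRP siRNA array 4. Across slides, control siRNA arrays 1, 2, 3 and 4 also deviated with KHSRP siRNA arrays 4, 3, 1 and 2 in turn (correlations of 0.38 to 0.42). These values were near the lowest within the pairs, so the deviations do not settle which arrays belong together. Array numbers in this text are those of the scanner files, and values from a fit with the matrix number as a block are given where they change a call. That replicate block called 5644 of 18761 probes (30.1%) and 4000 of 12125 genes (33%), so that a call under it is a common event. The block uses the numbers of the deposited matrix, and only the deviations of these same arrays favour them over those of the scanner files. A call under this block is therefore not independent support for a change.

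KHSRP itself was the largest change among the members. At probe A_23_P16157 the levels were 6.03, 5.81, 6.39 and 6.08 on control siRNA arrays 1 to 4 and 2.52, 2.58, 2.88 and 2.85 on KHSRP siRNA arrays 1 to 4. Every knockdown array lay far below the lowest control. The change was −3.37 (SE 0.16, limma adjusted p = 5.95e-05), or 10.4-fold, leaving 9.66% of the control level. An exact permutation test over the arrays (two-sided) gave p = 0.0286, the smallest that 4 against 4 allows. Within each slide the change was −3.37.

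The other KHSRP probe, A_24_P134235, stood near the limit of detection. Its levels were −0.95, −1.86, −1.04 and −1.10 with control siRNA and −4.99, −4.17, −3.92 and −2.55 with KHSRP siRNA. The scanner software rated it well above background on every control array but on 0 of the 4 knockdown arrays, so the size of the fall is uncertain here. Against the dimmest detected probe of each knockdown array, or the probe's own level where that was higher, KHSRP was 5.83-fold lower. That value is not a strict bound. On KHSRP siRNA array 4 the probe was not rated above background at −2.55, while the dimmest detected probe there was at −3.74. The limma fit gave it an adjusted p of 0.0147, which is no support of its own, since the probe was tested only because its control arrays were bright enough. The call was lost without control siRNA array 1 (adjusted p = 0.0549), and after normexp background correction the measured change was −0.54 (adjusted p = 0.0902) in place of −2.67.

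**Figure D1:**
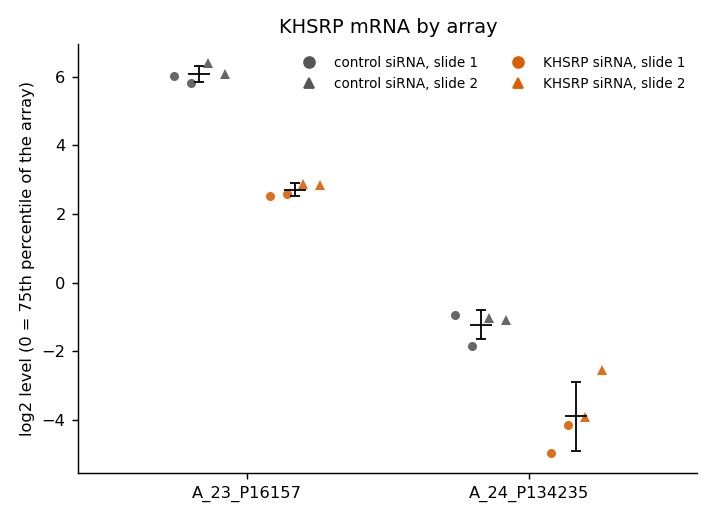
KHSRP log2 level (vertical axis, relative to the 75th percentile of the array) at its 2 probes on 4 control siRNA arrays (grey) and 4 KHSRP siRNA arrays (orange), with circles for slide 1, triangles for slide 2, and horizontal marks and bars for the group mean and SD (n = 4). At A_23_P16157 the means were 6.08 and 2.71, and at both probes no knockdown array reached a control array.

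FUBP1 (far upstream element binding protein), a KH-domain relative of KHSRP best known as an activator of MYC transcription, rose. At probe A_23_P45699 its levels were 1.91, 2.08, 1.62 and 2.16 with control siRNA and 2.85, 3.23, 3.16 and 2.46 with KHSRP siRNA. At probe A_33_P3281151 they were 1.93, 1.98, 1.78 and 2.03 against 2.79, 3.05, 3.20 and 2.57. The groups were separate at both probes, and KHSRP siRNA array 4 was the lowest of its group at each.

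The FUBP1 change was 0.98 (SE 0.20, limma adjusted p = 0.0262), a 1.98-fold rise, at A_23_P45699 and 0.97 (SE 0.15, adjusted p = 0.0103) at A_33_P3281151. Within slides it was 1.04 and 0.92 at the former and 0.96 and 0.98 at the latter. The within-array ratio of the 2 probes moved by 0.01 on the log2 scale (exact permutation p = 0.886). A_33_P3281151 stayed called without any single array, whereas A_23_P45699 kept its call only without control siRNA array 4 or KHSRP siRNA array 4, the adjusted p of the other 6 such fits reaching 0.0821. Centring the arrays on their median left changes of 0.91 at A_23_P45699 and 0.895 at A_33_P3281151. Neither was called (limma adjusted p = 0.106 and 0.0583). With no filter on dim probes both calls were lost as well (adjusted p = 0.103 and 0.0559).

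FUBP3, a further member of that family, was not called at any of its 3 probes. Its representative probe A_24_P203710 had levels of 2.20, 2.50, 2.49 and 2.27 with control siRNA and 2.06, 1.92, 2.07 and 2.0 with KHSRP siRNA, with a change of −0.35 (SE 0.11, limma adjusted p = 0.123). Levels at A_33_P3326099 were −1.02, −0.96, −0.89 and −0.80 against −1.40, −1.11, −1.24 and −1.29, a change of −0.34 (SE 0.11, adjusted p = 0.119). At both of these probes every knockdown array lay under every control array. A_23_P435833 had −1.96, −1.33, −1.69 and −1.93 against −2.13, −1.81, −2.06 and −2.04, and its groups overlapped (change −0.28, SE 0.16, adjusted p = 0.4). With the replicate block the first 2 probes were called (adjusted p = 0.0443 and 0.0223), while the third had an adjusted p of 0.0517. All 4 pairs of arrays were lower at all 3 probes.

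Changes of FUBP1 and FUBP3 could be set against each other within arrays, since a ratio of 2 probes on 1 array is free of the scaling between arrays. The log2 ratio of FUBP1 to FUBP3 was −0.42 ± 0.32 (SD, n = 4) in the controls and 0.91 ± 0.37 (SD, n = 4) after knockdown, and the groups did not overlap. The difference of 1.34 had the smallest p that the exact permutation test allows (p = 0.0286), which became 0.124 after adjustment over the 13 pairs of probes compared. None of the 13 pairs passed 0.05 after that adjustment. The ratio of KHSRP to FUBP1 moved by −4.36 and was also separate between the groups.

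ELAVL1 (HuR), which binds many of the same mRNAs and slows their decay, had 1 probe. Its levels at A_23_P388681 were −0.23, 0.18, −0.46 and −0.16 with control siRNA and −0.18, −0.22, −0.21 and −0.63 with KHSRP siRNA. The groups overlapped, with 3 knockdown arrays inside the range of the controls. The change was −0.14 (SE 0.17, limma adjusted p = 0.744), and −0.18 and −0.11 within slides.

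HNRNPD (AUF1), whose isoforms bind AU-rich elements and mostly speed decay, was called at 1 of its 2 probes. Its representative probe A_23_P58353 had 5.93, 5.93, 5.67 and 5.91 with control siRNA and 5.60, 5.92, 5.54 and 5.41 with KHSRP siRNA, and the groups overlapped (change −0.24, SE 0.14, limma adjusted p = 0.404). At A_24_P123245 the levels were 0.50, 0.53, 0.62 and 0.65 against −0.07, −0.06, 0.09 and 0.22, and no knockdown array reached a control. There HNRNPD fell 1.44-fold, a change of −0.53 (SE 0.11, limma adjusted p = 0.0299), with −0.58 and −0.48 within slides. This call held in only 1 of 8 fits that each left out an array, the one without KHSRP siRNA array 4 (adjusted p up to 0.0859 in the others). The change differed by 0.29 on the log2 scale between the 2 probes (exact permutation p = 0.2 without pairing), and within the pairs numbered as in the matrix this difference was 0.25, 0.58, 0.13 and 0.18, of 1 sign in all 4. Which HNRNPD transcripts each probe reads was not analysed here.

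ZFP36 (tristetraprolin), the founding member of the zinc finger family that recruits the CCR4-NOT deadenylase, was not called. Its levels at A_23_P39237 were 2.52, 2.64, 2.22 and 2.95 with control siRNA and 2.70, 2.59, 3.07 and 2.63 with KHSRP siRNA. The groups overlapped, and the change was 0.16 (SE 0.18, limma adjusted p = 0.72), with 0.06 on slide 1 and 0.26 on slide 2.

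ZFP36L1, its paralogue with the same zinc fingers and a like action on AU-rich mRNAs, rose. The levels at A_23_P99540 were 4.90, 4.99, 4.88 and 5.04 with control siRNA and 5.59, 5.68, 5.71 and 5.52 with KHSRP siRNA. Arrays within each group lay close together, and the groups were well apart. The change was 0.67 (SE 0.10, limma adjusted p = 0.00851), or 1.59-fold, with 0.69 and 0.66 within slides, and it stayed called without any single array.

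At the other ZFP36L1 probe, A_33_P3417865, the levels were 4.63, 4.20, 4.77 and 4.33 against 5.08, 5.03, 4.83 and 5.20. Here too every knockdown array was above every control, yet the change of 0.55 (SE 0.16) missed the threshold (adjusted p = 0.0829), and it was called with the replicate block (adjusted p = 0.00964). Under median centring the change at A_23_P99540 was 0.60 and not called (adjusted p = 0.0954). The difference of change between ZFP36 and ZFP36L1, 0.51 on the log2 scale, had an exact permutation p of 0.0571 without pairing (0.149 adjusted over the 13 pairs). Within the pairs of arrays the ratio of ZFP36 to ZFP36L1 changed by −0.74 to −0.23.

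ZFP36L2, the third paralogue, varied more between arrays of a group than between the groups. Its probe A_23_P101960 is spotted 10 times on each array, and the SD of those spots was 0.06 to 0.18. The levels were 0.65, −0.29, 1.05 and −0.55 with control siRNA and 1.18, 0.05, −0.27 and 1.40 with KHSRP siRNA. Control arrays 1 and 3 and knockdown arrays 1 and 4 were high, and the other 4 arrays were low. The group SDs of 0.76 and 0.83 stood against a median within-group SD of 0.25 and 0.26 over all tested probes.

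The same 4 arrays with high ZFP36L2 had the 4 highest sums of squamous markers (33151 to 38321, against 10301 to 17958 on the others), and the part of these markers in the ZFP36L2 level was not tested. The change of 0.37 (SE 0.48, limma adjusted p = 0.768) was within this spread. Within the 4 pairs numbered as in the matrix it was 0.53, 0.33, 0.36 and 0.27, and with the replicate block it was called (SE 0.07, adjusted p = 0.0146). The call for ZFP36L2 therefore rests on which numbers pair the arrays, since with the numbers of the scanner files the adjusted p was 0.813.

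TIA1, an RNA-binding protein of stress granules that represses translation of AU-rich mRNAs, fell at its representative probe. The levels at A_23_P90845 were 0.27, 0.43, 0.18 and 0.41 with control siRNA and −0.45, −0.38, −0.33 and −0.68 with KHSRP siRNA, with the groups well apart. The change was −0.78 (SE 0.12, limma adjusted p = 0.00928), a 1.72-fold fall, with −0.77 and −0.80 within slides, and it stayed called without any single array. It was called under each of the scalings between arrays tried, and its size was −0.51 after normexp background correction (adjusted p = 0.0107).

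The other TIA1 probe was not called. At A_24_P405430 the levels were −1.33, −0.87, −1.31 and −0.28 with control siRNA and −1.41, −0.96, −0.46 and −1.24 with KHSRP siRNA, with overlapping groups (change −0.07, SE 0.28, limma adjusted p = 0.942). With the replicate block it was also not called (adjusted p = 0.493). The mean of both probes changed by −0.43 and was not called (adjusted p = 0.262). The difference of change between the probes was −0.71 (exact permutation p = 0.0571 without pairing, 0.149 adjusted over the 13 pairs). Within the pairs of arrays it ranged from −0.94 to −0.56, and the transcripts that each probe reads were not analysed here.

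TIAL1 (TIAR), the closest relative of TIA1, was not called, and its groups overlapped. Its levels at A_23_P161488 were 2.45, 2.58, 2.25 and 2.55 with control siRNA and 2.41, 2.73, 2.54 and 2.24 with KHSRP siRNA, and the change was 0.02 (SE 0.14, limma adjusted p = 0.964). The within-array log2 ratio of TIA1, at A_23_P90845, to TIAL1 was −2.14 ± 0.05 (SD, n = 4) in the controls and −2.94 ± 0.11 (SD, n = 4) after knockdown. It changed by −0.81, and the groups did not overlap (exact permutation p = 0.0286, 0.124 adjusted over the 13 pairs). The ratio was tighter within each group than either gene's level.

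**Figure D2:**
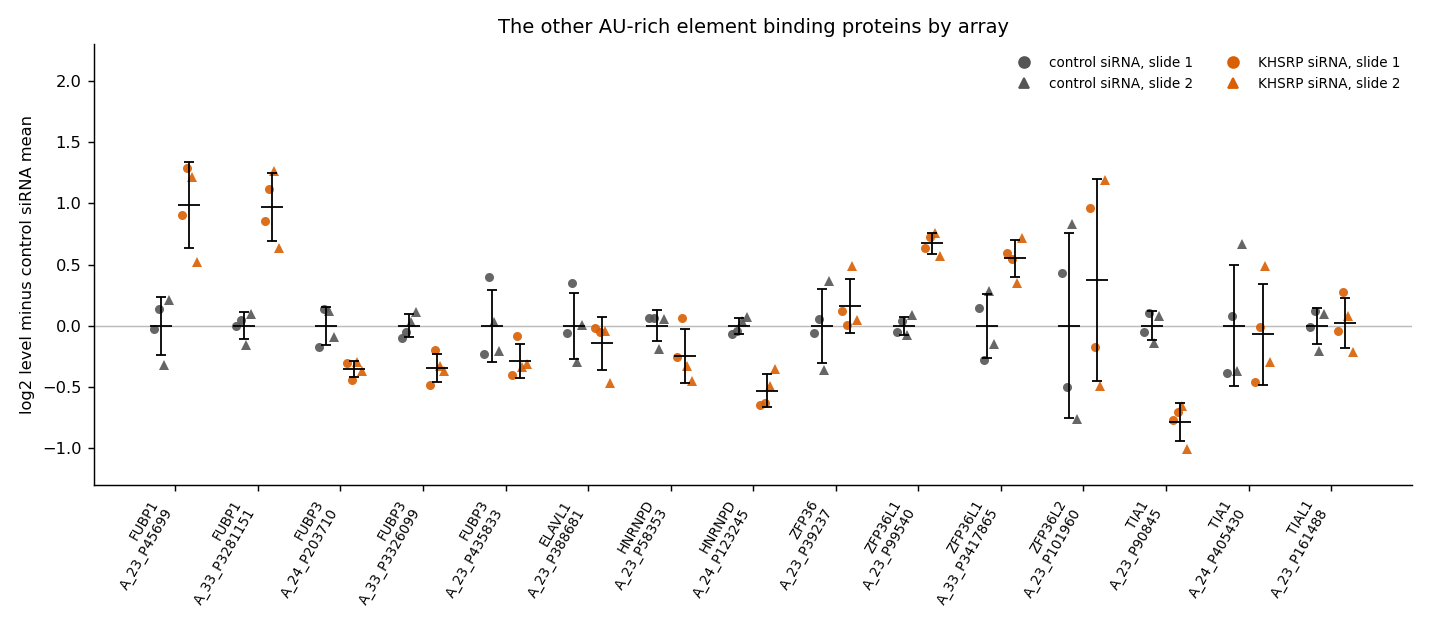
Log2 level of the 15 probes other than KHSRP, each minus its control siRNA mean (vertical axis), on the 4 control siRNA arrays (grey) and 4 KHSRP siRNA arrays (orange), with circles for slide 1, triangles for slide 2, and horizontal marks and bars for the group mean and SD (n = 4). Both FUBP1 probes and both ZFP36L1 probes lie above their controls. TIA1 A_23_P90845, HNRNPD A_24_P123245 and FUBP3 A_24_P203710 and A_33_P3326099 lie below, while the arrays of ZFP36L2 spread over more than 1 in each group.

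With the replicate block numbered as in the matrix, 9 of the 15 probes other than KHSRP were called, against 30.1% of all tested probes under that block, and 5 of the 9 genes, against 33%. The added genes were FUBP3 and ZFP36L2. ELAVL1, ZFP36 and TIAL1 were called at no probe in either fit, and HNRNPD was called in both at A_24_P123245 and in neither at its representative probe. With the block numbered as in the scanner files, KHSRP alone of the 10 genes was called. Of the 13 ratios between probes, 7 changed with 1 sign in all 4 pairs numbered as in the matrix, namely those of all 5 pairs of relatives and those within HNRNPD and TIA1. Several of these ratios share a probe, and that of KHSRP to FUBP1 includes the silenced gene. An exact sign-flip test over 4 pairs (two-sided) cannot go below p = 0.125, which each of these 7 reached (0.232 adjusted over the 13).

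**Figure D3:**
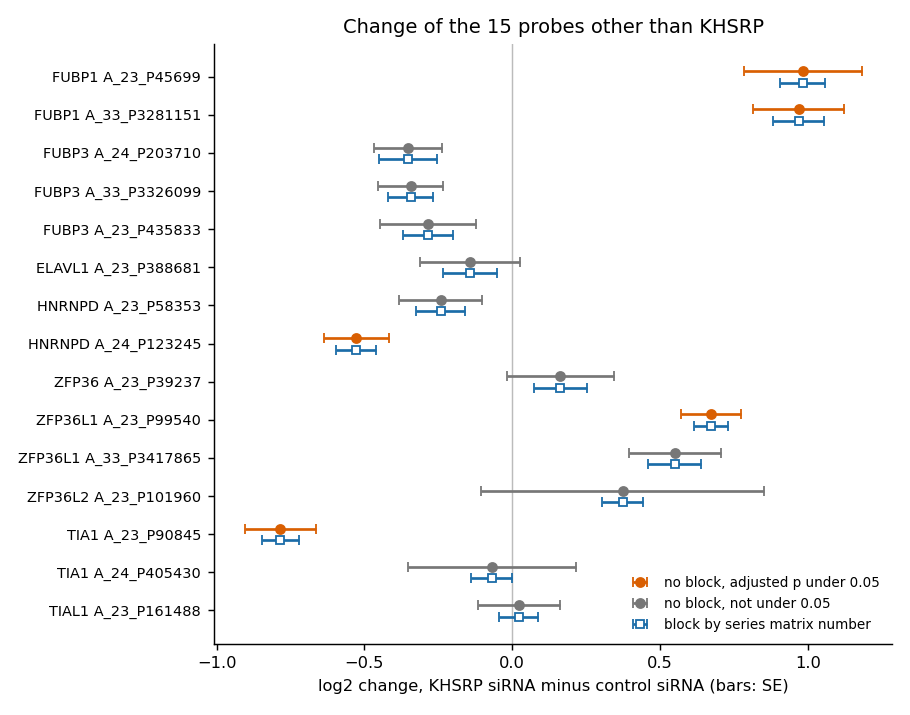
Log2 change (horizontal axis, KHSRP siRNA minus control siRNA) of the 15 probes other than KHSRP, with bars for the SE, from the fit without a block (circles, orange where the adjusted p was under 0.05) and from the fit with the series matrix number as a block (open squares). The changes are the same in both fits and the errors are smaller with the block, most of all for ZFP36L2, with an SE of 0.48 without it and 0.07 with it.

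**Figure D4:**
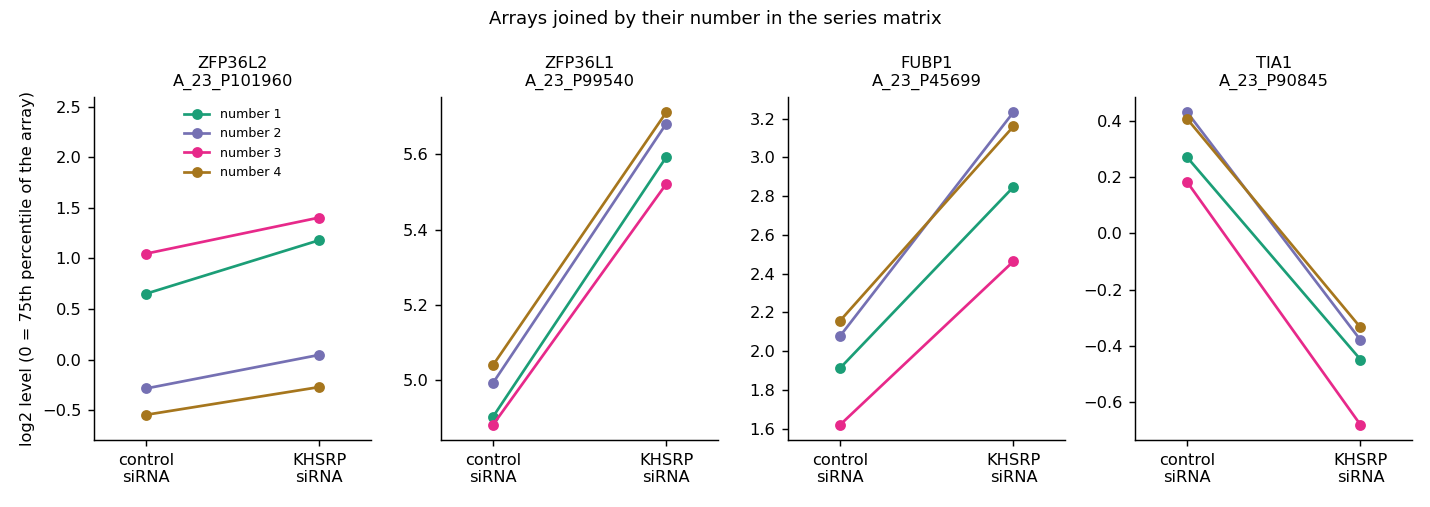
Log2 levels (vertical axis, relative to the 75th percentile of the array, with a separate range for each panel) of ZFP36L2, ZFP36L1, FUBP1 and TIA1 on control siRNA and KHSRP siRNA arrays, with lines joining arrays of the same series matrix number. All 4 lines rise for ZFP36L2, by 0.27 to 0.53, although the arrays themselves lie in a high and a low pair in each group.

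Genes with the most similar profile over the 8 arrays were sought among 11441 other genes, by the root mean square difference of log2 levels after each probe was set to its control mean. For FUBP1 they were RNF125 (0.109), APOBEC3C (0.113) and ACY1 (0.119), of which ACY1 was not called in the limma fit (adjusted p = 0.0848). For ZFP36L1 they were ZNRF1 (0.0672), NLRX1 (0.0713) and XKR8 (0.072), and for TIA1 they were PIF1 (0.0698), PTTG2 (0.0764) and BBS9 (0.0767). For KHSRP the nearest were MTHFS (0.71), ITGB1 (0.862) and PPP6C (0.924), with changes of −2.39, −2.19 and −2.10 on the log2 scale. They were much less close to KHSRP than the genes named for the other members. Since the measure includes the change itself, the changes of all these genes follow from the way they were selected.

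Of 23 further RNA-binding proteins listed beside the members, 19 were tested, and 3 were called, all lower (15.8%, against 6.19% of all genes). PABPC1, the cytoplasmic poly(A)-binding protein, was at 6.94 ± 0.16 (SD, n = 4) in the controls and 5.61 ± 0.11 (SD, n = 4) after knockdown, a change of −1.32 (SE 0.12, limma adjusted p = 0.00108). KHDRBS1 (Sam68), which like KHSRP carries a KH domain, went from 4.88 ± 0.08 (SD, n = 4) to 3.81 ± 0.20 (SD, n = 4), a change of −1.08 (SE 0.13, adjusted p = 0.00308). HNRNPA1, an abundant splicing factor, changed by −0.56 (SE 0.11, adjusted p = 0.0241), though a further probe of this gene was not called.

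PABPC1 and KHDRBS1 kept their calls without any single array, whereas HNRNPA1 kept its call in 1 of those 8 fits. The median change of the 19 was −0.11, beside 0.006 over all genes, and 5 of them were above 0. The groups did not overlap for 6 of the 19, against 14.8% of all tested probes. With the replicate block 7 were called, 6 lower and 1 higher, against 33% of all genes.

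Among 20 partners of AU-rich decay, that is subunits of the exosome, the deadenylases, the decapping enzymes and their regulators, 17 were tested and 2 were called, both lower (11.8%, against 6.19% of all genes). PARN, the poly(A)-specific ribonuclease that KHSRP can bring to its targets, was at 1.94 ± 0.08 (SD, n = 4) in the controls and 1.17 ± 0.11 (SD, n = 4) after knockdown. The change was −0.77 (SE 0.11, limma adjusted p = 0.00586), with −0.65 on slide 1 and −0.89 on slide 2. YWHAZ, the 14-3-3 zeta protein, changed by −1.41 (SE 0.18, adjusted p = 0.0043) and was also called at a further probe. The groups did not overlap for 2 of the 17 (11.8%), PARN and YWHAZ, which is not above the 14.8% of all tested probes. The median change of the 17 was −0.17. With the replicate block 7 of the 17 were called, all lower, against 33% of all genes called in either direction.

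Of 38 mRNAs known to carry AU-rich elements, 32 were tested and 3 were called (9.38%, against 6.19% of all genes), with a median change of 0.05 over the list. HBEGF, a ligand of the EGF receptor, rose by 0.91 (SE 0.22, limma adjusted p = 0.0484). DUSP1, a phosphatase that inactivates MAP kinases, rose by 0.49 (SE 0.11, adjusted p = 0.034). IER3, an immediate-early gene with roles in cell survival, changed by −1.06 (SE 0.25, adjusted p = 0.047) and was likewise called at a further probe. These calls were close to the threshold, since HBEGF and IER3 each kept theirs in 1 of the 8 fits without an array and DUSP1 in none. With the replicate block 11 of the 32 were called, 7 higher and 4 lower, against 33% of all genes.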

How the data were processed

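The members, lists and tests were chosen with earlier results of these data known. The authors scanned each array with Agilent Feature Extraction 11.5.1.1 per the file headers (the submitters' processing notes name 12.6), so that the deposited values are linear fluorescence intensity, background-subtracted within the array and not scaled between arrays. The authors also deposited a series matrix of log2 values, used for an alternative. Its columns matched the scanner values, except that KHSRP siRNA 3 and 4 were exchanged within their group. The labels and the methods name different RNA extraction reagents.

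Control and outlier spots were left out, and log2 intensity was averaged per probe and centred on the 75th percentile of each array. Probes with at least 0.5 of their spots well above background on all 4 arrays of at least 1 group were tested. Names came from RefSeq accessions through the GRCh38.p14 gene table, and a symbol was found for 27241 of 42405 probes (64.2%). Coordinates are not given, since the array design uses another build. The 2 groups were fitted without a block, using lmFit and eBayes of limma 3.58.1 (R 4.3.3) for two-sided tests. Differences of change between probes were compared by exact permutation tests with SciPy 1.17.1 for 13 pairs, and, added after seeing the data, by exact sign-flip tests within pairs of arrays. All 10 members are described at every probe, and in each list the 3 called genes that moved most, beside the 3 most similar genes of each called member.

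The fit was tested on simulated data for 18760 probes, some of them with known changes. The simulated arrays were drawn independently, so the shared deviations of the real arrays were not covered. Alternatives covered the scaling, normexp correction (offset 50, on the median spot signal), the filter, blocks by slide and by replicate number, array weights, an intensity trend, the methods' t-test, the mean of a gene's probes, and leaving out each array. The replicate numbers came from the scanner files or from the series matrix, and the arrays' deviations were used to compare these numberings. With 4 arrays a group, their number limits the precision.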

Additional observations from a re-analysis of the deposited data

Results flagged for a closer look

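Dixon's ratio, the gap of the outermost array to its neighbour over the range of the group, passed its critical value in 5 of the 74 groups of 4 arrays examined, and chance flags about 1 in 20 groups. KHSRP at A_24_P134235 had a low control siRNA array 2 (−1.86, next −1.10, ratio 0.832), and without it the change was −2.88 (limma adjusted p = 0.0315). ELAVL1 at A_23_P388681 had a low KHSRP siRNA array 4 (−0.63, next −0.22, ratio 0.914), without which the change was −0.04 (adjusted p = 0.948). HNRNPD at A_23_P58353 had a low control siRNA array 3 (5.67, next 5.91, ratio 0.95), and the change without that array was −0.31 (adjusted p = 0.321). Among the genes with similar profiles, ITGB1 at A_23_P104199 had a low KHSRP siRNA array 4 (ratio 0.900) and NLRX1 at A_24_P244356 a low KHSRP siRNA array 1 (ratio 0.932). Both stayed called without these arrays, with adjusted p = 0.000654 and 0.0266.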

How the results depend on the processing

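The KHSRP fall at A_23_P16157 kept its direction and its call in every alternative with a test. It ranged from −3.46 to −3.27 on the log2 scale, both ends with 1 array left out. The mean of both KHSRP probes changed by −3.02 and was also called (limma adjusted p = 0.00138). Of the 10 members, 3 or 4 were called with 1 array left out, 2 with median scaling (KHSRP and TIA1) and 1 (KHSRP) with no filter on dim probes or with the replicate block of the scanner file numbers. Over all tested probes the 1039 calls became 489 to 766 with 1 array left out, 570 with median scaling (17.2% of them higher, against 34.6%), 319 with no filter, 156 with the replicate block of the scanner file numbers (19.2% higher), 5644 with that of the series matrix numbers (49.3% higher) and 3710 by the methods' t-test at an unadjusted p under 0.05 (1081 after Benjamini-Hochberg adjustment, where FUBP1 was not called at A_23_P45699). In the limma fit 3677 probes had an unadjusted p under 0.05. Each replicate block changed the calls of members as given above.

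Of the further binding proteins 2 to 3 were called with 1 array left out, 5 with normexp correction or the slide block (which called 846 and 1169 of all tested probes), 7 with the matrix replicate block and 7 by the unadjusted t-test. Of the decay partners 2 were called with any array left out, 0 with the scanner replicate block, 7 with the matrix replicate block and 5 by the unadjusted t-test. Of the AU-rich mRNAs 0 to 1 were called with 1 array left out, 0 with median scaling, normexp correction, no filter or the scanner replicate block, 11 with the matrix replicate block, and 1 and 5 by the t-test with and without adjustment. Pairs of probes with separate ratios numbered 3 to 5 with 1 array left out and 5 with normexp correction, and 7 had 1 sign in all 4 pairs of the matrix replicate block, a comparison added after seeing the data.

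The sign turned only for 2 probes near 0. TIAL1 changed by −0.051 with median scaling, by −0.015 with normexp correction and by −0.012 on slide 2 alone, and by −0.060 (without KHSRP siRNA array 2) to 0.10 with 1 array left out, also below 0 without control siRNA array 3 (−0.046). TIA1 at A_24_P405430 changed by −0.25 to 0.15 with 1 array left out, above 0 without control siRNA array 4 (0.15), KHSRP siRNA array 1 (0.061) or KHSRP siRNA array 4 (0.0054). The causes of these changes were not tested.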
